A study of Mus musculus with 15 samples.

Results

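The macrophage marker genes Cd68, Cd163, Mrc1, Lyz2, C1qa, C1qb, C1qc, Csf1r, Itgam and Ptprc, were followed in mouse gastrocnemius, the large calf muscle. They were chosen by name, each through a probe set whose single annotated symbol is that gene, and make up 10 of the 19938 genes named on the arrays. Each of the 10 had 1 such probe set. RNA came from 15 male C57BL/6 mice aged 12 months, with 1 mouse on each array. Wildtype mice were fed a control diet (3 arrays) or were calorie restricted (CR, 4 arrays), and Sirt3 knockout mice were likewise fed the control diet (4 arrays) or calorie restricted (4 arrays). Sirt3 is a mitochondrial protein deacetylase. The sources used here do not say how the knockout allele was made, nor how far and how long food was reduced. Sirt3 itself lay between 6.38 and 6.68 on the 7 wildtype arrays and between 4.94 and 6.19 on the 8 knockout arrays, so the genotypes did not overlap. All levels are log2 intensities after RMA, the background correction, normalization and summary step that the submitters' processing notes name. Levels are compared only within a gene, because each probe set has its own brightness.

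Macrophages reside between muscle fibres, clear dead cells and debris, and are needed for muscle to regenerate after injury. The 3 C1q genes encode the chains of C1q, the protein that recognises immune complexes and dying cells and starts the classical complement pathway. Csf1r is the receptor for Csf1 and Il34, the growth factors that keep macrophages alive. Lyz2 encodes a lysozyme, Cd68 a glycoprotein of the lysosome membrane, Cd163 the scavenger receptor for haemoglobin bound to haptoglobin, and Mrc1 the mannose receptor CD206. Itgam encodes CD11b, an integrin chain of myeloid cells, and Ptprc encodes CD45, a phosphatase on nearly all leukocytes. None of these genes is read here from isolated cells: in RNA of whole muscle, fewer macrophages and less RNA per macrophage cannot be told apart.

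The promoters of C1qb, C1qc, Lyz2 and Cd68 are shown because each pair of the first 3 genes passed the test of Pearson's r across the arrays and no pair of them with Cd68 did, as the values below show. Each run holds the 250 bases before the annotated start site, 5′ to 3′ on the gene's strand, from RefSeq (GRCm38.p6). Capitals mark GAGGAA, a motif that the macrophage factor PU.1 (Spi1) can bind, or TTCCTC where that motif lies on the other strand. Shorter runs such as GGAA, which the Lyz2 window holds, were not marked or counted.
C1qb: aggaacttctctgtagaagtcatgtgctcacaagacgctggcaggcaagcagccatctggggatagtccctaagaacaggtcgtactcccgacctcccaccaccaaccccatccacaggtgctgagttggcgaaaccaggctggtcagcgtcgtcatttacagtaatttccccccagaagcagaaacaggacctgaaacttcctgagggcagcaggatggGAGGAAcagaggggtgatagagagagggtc
C1qc: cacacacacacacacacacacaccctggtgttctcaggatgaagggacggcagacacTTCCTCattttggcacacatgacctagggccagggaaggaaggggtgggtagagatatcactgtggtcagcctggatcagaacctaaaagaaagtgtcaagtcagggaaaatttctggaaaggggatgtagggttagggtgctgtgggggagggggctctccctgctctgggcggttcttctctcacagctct
Lyz2: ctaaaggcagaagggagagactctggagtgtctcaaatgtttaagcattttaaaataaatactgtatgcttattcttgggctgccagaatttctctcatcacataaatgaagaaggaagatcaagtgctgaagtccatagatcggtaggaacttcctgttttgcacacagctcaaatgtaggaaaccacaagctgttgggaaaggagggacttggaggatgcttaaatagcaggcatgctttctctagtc
Cd68: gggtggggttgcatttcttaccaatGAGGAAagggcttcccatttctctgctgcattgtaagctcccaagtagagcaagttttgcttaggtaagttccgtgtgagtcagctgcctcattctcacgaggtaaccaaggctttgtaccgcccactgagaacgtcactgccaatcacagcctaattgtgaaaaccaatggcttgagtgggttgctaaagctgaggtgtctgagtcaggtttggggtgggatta
The C1qb window is chr4:136886201-136886450 and the C1qc window chr4:136892915-136893164, both on the minus strand, and C1qc lies between C1qb and C1qa in the gene order. The Lyz2 window is chr10:117282273-117282522 and the Cd68 window chr11:69666171-69666420, also on the minus strand. The marked motif began 30 bases before the start in C1qb, 193 before it in C1qc on the other strand, and 225 before it in Cd68. GAGGAA and TTCCTC were not in the Lyz2 window. Promoters of 8 members, with 9 start sites, were searched. C1qa had no promoter entry. Csf1r was left out by its chromosome, 18, with no reason recorded, so neither is counted. Of the 9 start sites, 6 had GAGGAA on either strand, against 7639 of all 32851 windows of the same length (23.3%). Windows on the chromosome of Csf1r were kept in that total, so the members and the total follow unlike rules. It was the 1 motif searched, and it was picked after the files had been seen. The letters alone do not show that a factor binds there.

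No member passed the test for calorie restriction, for genotype or for their interaction. The test was limma with Benjamini-Hochberg adjustment over the 12056 genes whose mean passed a low-value filter of 5.32, at a threshold of 0.05. Of the 10 members 7 passed that filter, while Cd163, Itgam and Ptprc lay below it with means of 5.02, 4.86 and 5.09. Over all genes, 0.124% passed for CR in wildtype, 0.0664% for CR in knockout and 1.07% for CR averaged over both genotypes. For the interaction and for knockout against wildtype on the control diet the share was 0%, and for knockout against wildtype under CR it was 0.0166%. Against shares this low, a count of 0 among 7 members does not set them apart from other genes.

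**Figure D1:**
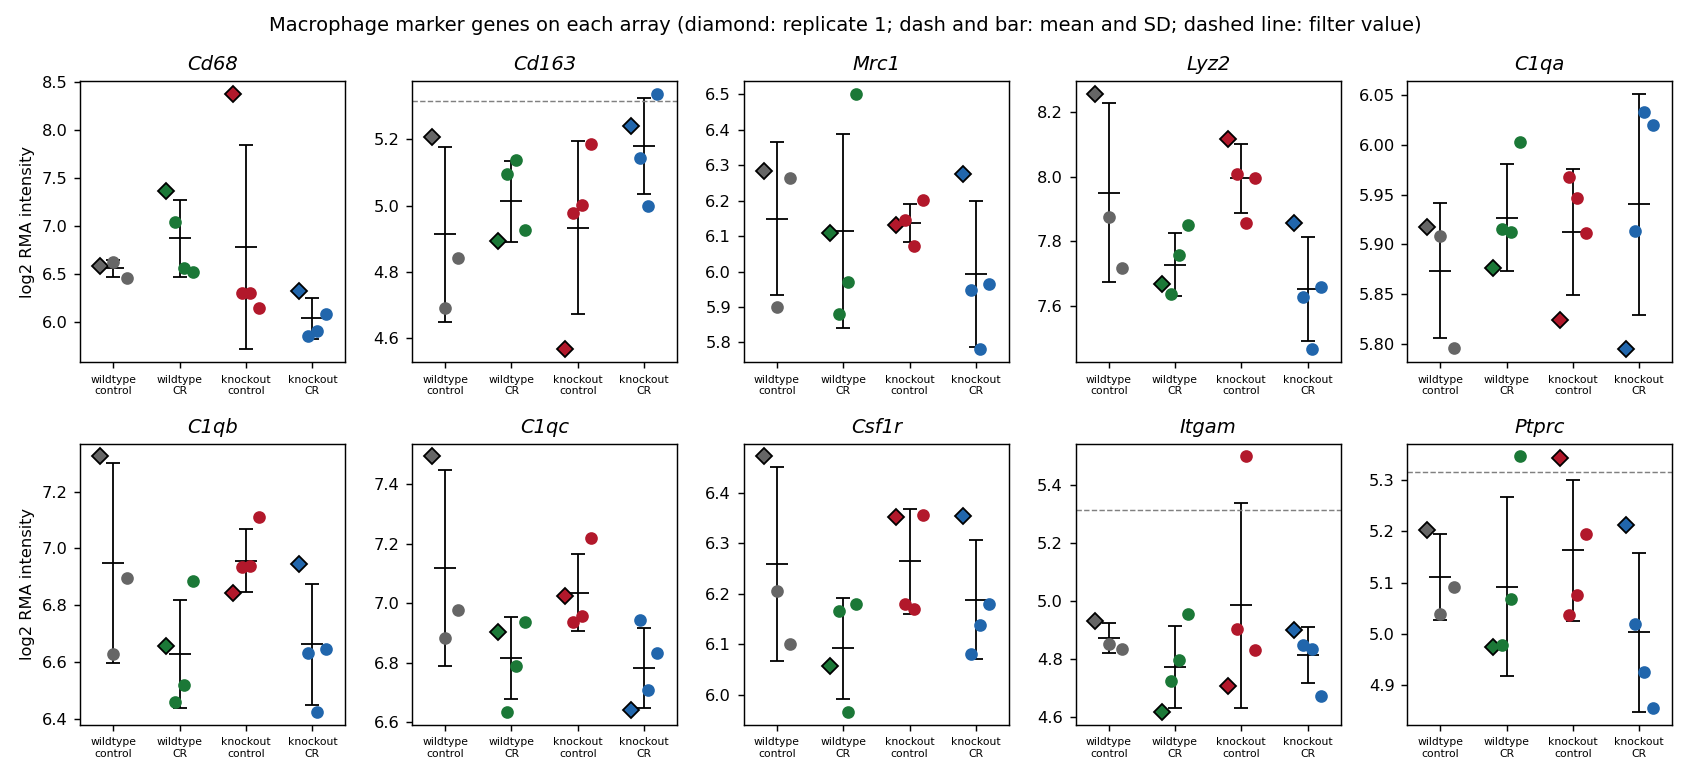
Log2 RMA intensity (vertical axes, a different range in each panel) of the 10 macrophage marker genes on all 15 arrays, by group. Points are arrays, diamonds are replicate 1 of each group, dashes and bars are the mean and SD, and the dashed line is the filter value of 5.32. C1qb and C1qc have their highest point at wildtype control replicate 1, and Cd68 has a single high point of 8.37 in the knockout control group.

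The complement chains C1qb and C1qc had lower mean levels under CR in both genotypes, by amounts within reach of the spread between mice, and C1qa did not share this pattern. C1qb read 7.32, 6.63 and 6.90 on the wildtype control arrays and 6.66, 6.46, 6.52 and 6.89 on the wildtype CR arrays. In the knockout it read 6.84, 6.94, 6.94 and 7.11 on the control diet and 6.95, 6.63, 6.42 and 6.65 under CR. Replicate 1 of the wildtype controls was the highest of all 15 arrays, and the diets overlapped in both genotypes. Averaged over genotypes, the log2 change of C1qb under CR was -0.31 (SE 0.11), unadjusted p = 0.0113 and adjusted p = 0.144 in limma.

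C1qc read 7.49, 6.88 and 6.98 on the wildtype control arrays against 6.90, 6.63, 6.79 and 6.94 under CR. The knockout arrays gave 7.03, 6.94, 6.96 and 7.22 on the control diet and 6.64, 6.94, 6.71 and 6.83 under CR. Again wildtype control replicate 1 stood highest of all arrays and the diets overlapped. The averaged log2 change of C1qc was -0.28 (SE 0.09), with an adjusted p of 0.127 in limma. C1qa, the chain gene next to C1qc, kept between 5.80 and 6.03 on all 15 arrays, and its averaged log2 change was 0.04 (SE 0.05, adjusted p = 0.633). That range spans less than the SD of C1qb within the wildtype control group, 0.35.

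Lyz2 had the smallest adjusted p of the members. Its level was 8.26, 7.88 and 7.72 in the wildtype controls and 7.67, 7.64, 7.76 and 7.85 in the wildtype CR group. In the knockout it was 8.12, 8.01, 7.86 and 7.997 on the control diet and 7.86, 7.63, 7.47 and 7.66 under CR. The knockout diets did not overlap, although the lowest control and the highest CR array were both 7.86 after rounding, and the wildtype diets did overlap. Among all genes, 3.08% were lower without overlap in that knockout comparison, and Lyz2 was the 1 member that was. The log2 change of Lyz2 was -0.34 (SE 0.11, adjusted p = 0.259) in the knockout, -0.22 (SE 0.12, adjusted p = 0.428) in the wildtype and -0.28 (SE 0.08, adjusted p = 0.0966) averaged. With limma's array weights the averaged change was -0.32 with an adjusted p of 0.0421, the only setting tried in which any member passed; over all alternatives the adjusted p of Lyz2 ran from 0.0421 to 0.168. Lyz1, a close copy of Lyz2, is its neighbour on the chromosome, and how far the Lyz2 probe set also reads Lyz1 is not known here.

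The receptor Csf1r was read at 6.47, 6.21 and 6.10 in the wildtype controls and at 6.06, 6.17, 5.97 and 6.18 under CR. The knockout gave 6.35, 6.18, 6.17 and 6.36 on the control diet and 6.35, 6.08, 6.14 and 6.18 under CR. Both pairs of diets overlapped, and the averaged log2 change was -0.12 (SE 0.07, adjusted p = 0.311). The mannose receptor Mrc1 spanned 5.90 to 6.28 in the wildtype controls, 5.88 to 6.50 in wildtype CR, 6.07 to 6.20 in the knockout controls and 5.78 to 6.27 in knockout CR, with an averaged log2 change of -0.09 (SE 0.10, adjusted p = 0.613). Its 4 ranges overlapped throughout.

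Cd163, Itgam and Ptprc lay near or under the filter value on most arrays, where array readings are dim. Their group means ranged from 4.91 to 5.18 for Cd163, from 4.77 to 4.99 for Itgam and from 5.00 to 5.16 for Ptprc. In a fit without the filter, the averaged log2 change under CR was 0.17 (SE 0.10, adjusted p = 0.373) for Cd163, -0.14 (SE 0.10, adjusted p = 0.473) for Itgam and -0.09 (SE 0.08, adjusted p = 0.522) for Ptprc. Cd163 was thus the one of these whose mean was higher under CR, and none of these changes passed the test. A single Itgam reading of 5.50, on knockout control replicate 3, stood above the other 14, which ran from 4.62 to 4.95.

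As a group, 6 of the 7 members that passed the filter had an averaged change below 0, C1qa being the exception, and their median log2 change was -0.21 beside 0.03 over all 12056 genes, of which 40.5% were below 0. That median was Cd68's own value, and without knockout control replicate 1 Cd68 was at 0.05 and the median at -0.11. An unadjusted p under 0.05 with a lower level under CR was reached by 3 of the 7 (Lyz2, C1qb and C1qc) beside 6.40% of all genes. In the wildtype alone that held for 1 member, C1qc, beside 3.40% of all genes, and in the knockout for 1, Lyz2, beside 5.17%. The median log2 change of the 7 was -0.17 in the wildtype and -0.25 in the knockout, beside 0.04 and 0.01 over all genes. Without wildtype control replicate 1 the wildtype median was -0.06. Lyz2, C1qb and C1qc, which make up the count of 3, were correlated across the arrays, so they are not separate observations.

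**Figure D2:**
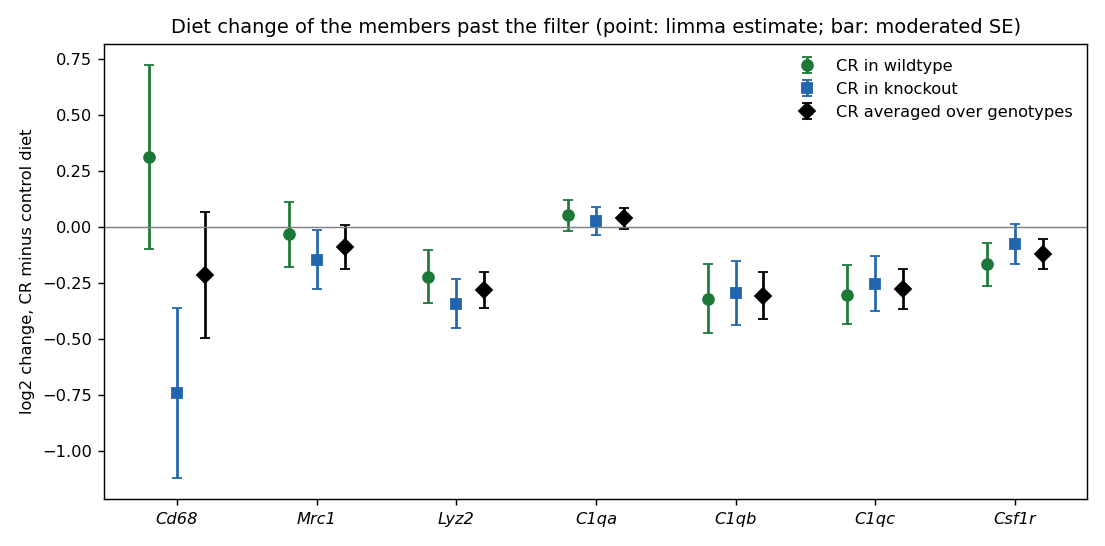
Log2 change under CR against the control diet (vertical axis) for the 7 members past the filter, in wildtype, in knockout and averaged. Points are limma estimates and bars are moderated SEs. Lyz2, C1qb and C1qc lie below 0 in all 3 comparisons, C1qa lies close to 0, and Cd68 has opposite signs in the 2 genotypes with the widest bars.

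Wildtype control replicate 1 decided much of the wildtype diet difference. It was the highest of the 15 arrays for C1qb, C1qc, Lyz2 and Csf1r, and the mean of the 10 members, each centred on its own mean, was 0.24 on it against -0.07 and -0.03 on the other wildtype controls. Without that array the log2 change of C1qb in the wildtype went from -0.32 to -0.13, that of C1qc from -0.30 to -0.11, that of Lyz2 from -0.22 to -0.07 and that of Csf1r from -0.17 to -0.06, with adjusted p between 0.586 and 0.748. Averaged over genotypes the changes without it were -0.21 for C1qb, -0.18 for C1qc, -0.21 for Lyz2 and -0.07 for Csf1r. As wildtype control replicate 1 was the highest array for these genes, leaving it out was bound to shrink their fall under CR. The knockout estimates do not use that array. The next highest member mean, 0.20 on knockout control replicate 1, came with the Cd68 reading of 8.37, and the lowest, -0.21, was on knockout CR replicate 3.

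Other lists were also high on wildtype control replicate 1. As means over matched genes centred in the same way, macrophage receptors and signalling (30 genes) stood at 0.25, pan-leukocyte genes (16) at 0.26, dendritic cell and MHC class II genes (11) at 0.41 and mast cell genes (6) at 0.36, each the highest of the 15 arrays. The hepatocyte list (11 genes, 9 past the filter) stood at 1.08 there, behind 2.32 on wildtype CR replicate 4 and 1.29 on knockout control replicate 2. By group, the hepatocyte list ran from -0.74 to 1.08 in wildtype controls, -0.56 to 2.32 in wildtype CR, -0.89 to 1.29 in knockout controls and -0.58 to 0.27 in knockout CR. Markers of Kupffer cells, the macrophages of the liver, were below the filter value for 6 of 6 genes, with Cd5l, Vsig4, Clec4f and Marco at group means of at most 5.32, and their list stood at 0.09 on wildtype control replicate 1. The part of liver transcripts in the members' levels was not tested. Other arrays held transcripts of other tissues: the pancreatic acinar list stood at 6.60 on wildtype control replicate 2, and the male germ cell list at 3.62 on wildtype control replicate 3 and 3.14 on knockout control replicate 1. The muscle creatine kinase gene Ckm lay between 13.11 and 13.30 on all 15 arrays, so muscle RNA was present on each. This gene alone does not tell gastrocnemius from another muscle.

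**Figure D3:**
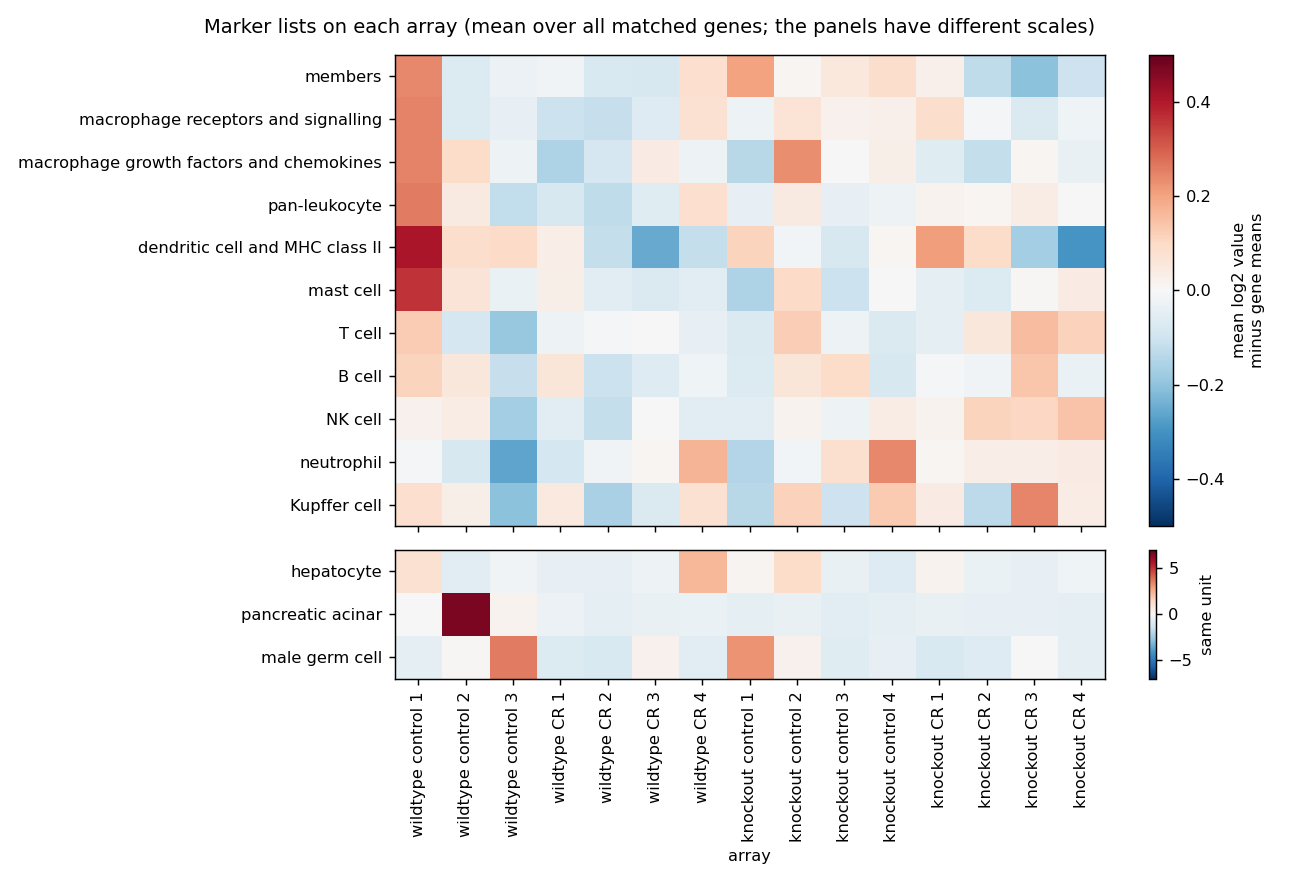
Mean log2 value of each marker list on each of the 15 arrays, after each gene was centred on its mean over arrays (colour, with separate scales for the upper and lower panel). The first column, wildtype control replicate 1, is the highest for the members, macrophage receptors, pan-leukocyte, MHC class II and mast cell lists. The lower panel shows the liver, pancreas and germ cell lists, with the largest value, 6.60, on wildtype control replicate 2.

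Across the 15 arrays, the positive correlations that passed the test lay among Lyz2, C1qb, C1qc, Csf1r, Mrc1 and Ptprc, though not for every pair of them. All 45 pairs were tested by permutation (100000 resamples) with Benjamini-Hochberg adjustment over the 45. The permutation ignored the 4 groups, so its p-values do not separate differences between groups from those within them. Pearson's r passed for 9 pairs, and both Pearson's r and Spearman's rho passed for 4. Of the 15 pairs among those 6 genes, 8 passed by Pearson's r and 4 by both, and Mrc1 with Csf1r (r = 0.41) and C1qc with Ptprc (r = 0.42) were among those that passed neither. The other passing pair was a negative correlation of Cd68 with Cd163. Lyz2 and C1qb gave r = 0.83 (adjusted permutation p = 0.0045) and rho = 0.71 (adjusted permutation p = 0.0485). Without the 2 arrays farthest from the Lyz2 median, wildtype control replicate 1 and knockout CR replicate 3, r was 0.66, and within the 4 groups, after removing group means, it was 0.72. Mrc1 and C1qb gave r = 0.77 and rho = 0.84 (adjusted permutation p = 0.0099 and 0.0072), with r = 0.85 without the 2 arrays farthest from the Mrc1 median and 0.86 within groups. The remaining pairs that passed both were Mrc1 with Ptprc and Lyz2 with Csf1r. Mrc1 with Ptprc gave r = 0.76 and rho = 0.79, with r = 0.62 without the 2 arrays farthest from the Mrc1 median and 0.74 within groups. Lyz2 with Csf1r gave r = 0.75 and rho = 0.70, with r = 0.68 without the 2 farthest from the Lyz2 median and 0.78 within groups. The pair of neighbouring chain genes C1qb and C1qc had r = 0.79 (adjusted permutation p = 0.009) but a rho of 0.65 that missed the threshold (adjusted permutation p = 0.0707). Their r was 0.59 without the 2 arrays farthest from the C1qb median and 0.66 within groups. The remaining chain, C1qa, had r = -0.26 with C1qb and -0.05 with C1qc, although the 3 chains are parts of 1 protein complex. The genes most like C1qa over the arrays were Snord55 (r = 0.92) and Chdh (r = 0.86), neither of them a member. How well its probe set reads C1qa was not tested.

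**Figure D4:**
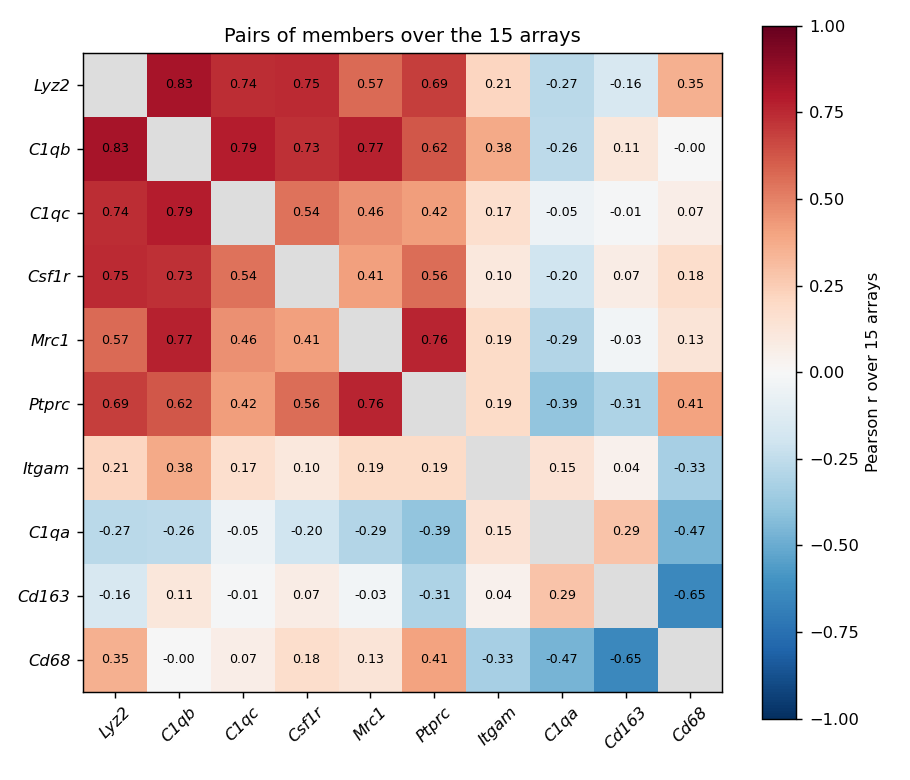
Pearson's r over the 15 arrays (colour and printed value) for every pair of the 10 genes. The upper left block of Lyz2, C1qb, C1qc, Csf1r, Mrc1 and Ptprc holds values from 0.41 to 0.83, and C1qa, Cd163 and Cd68 have values from -0.39 to 0.41 with those 6 genes.

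Cd68, the lysosomal glycoprotein, was highest on knockout control replicate 1, whereas C1qb, C1qc, Lyz2 and Csf1r were highest on wildtype control replicate 1. Cd68 read 6.59, 6.63 and 6.46 on the wildtype control arrays and 7.36, 7.04, 6.56 and 6.52 on the wildtype CR arrays. In the knockout it read 8.37, 6.30, 6.30 and 6.15 on the control diet and 6.32, 5.85, 5.90 and 6.08 under CR. A single knockout control array therefore stood 1 log2 unit or more above every other array, and 2 wildtype CR arrays came next. Its log2 change under CR was 0.31 (SE 0.41, adjusted p = 0.745) in the wildtype and -0.74 (SE 0.38, adjusted p = 0.466) in the knockout, with an interaction of -1.06 (SE 0.56, adjusted p = 0.863). Without knockout control replicate 1 the knockout change was -0.21 and the interaction -0.53 (adjusted p = 0.719 and 0.628).

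Under CR, all 4 knockout arrays lay below all 4 wildtype arrays for Cd68. The log2 difference of knockout against wildtype was -0.83 (SE 0.38), with an unadjusted p of 0.0461 and an adjusted p of 0.839. Leaving out knockout control replicate 1, which is in neither group but adds to the shared estimate of the spread, gave the same difference with an SE of 0.16, an unadjusted p of 0.00017 and an adjusted p of 0.135. That array is named here for its Cd68 reading, so leaving it out was bound to lower the SE of Cd68. These p-values are therefore no separate support. Cd68 was the 1 member with either property, beside 2.76% of all genes that were lower without overlap and 3.34% that were lower at an unadjusted p under 0.05. On the control diet the difference was 0.22 (SE 0.41, adjusted p = 0.931), and it was -0.31 without knockout control replicate 1. Over the 7 members the median log2 difference between genotypes was 0.01 on the control diet and -0.03 under CR, beside 0.02 and -0.01 over all genes.

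No pair of Cd68 with another member passed both correlation tests. This was not particular to Cd68, since no pair with Cd163, C1qa, C1qc or Itgam passed both either. With C1qb the r of Cd68 was -0.0035 (adjusted permutation p = 0.99), with Lyz2 0.35 (adjusted permutation p = 0.405) and with Csf1r 0.18 (adjusted permutation p = 0.725). Its r of -0.65 with Cd163 passed the Pearson test (adjusted permutation p = 0.0485) but was -0.27 without the 2 arrays farthest from the Cd68 median. Its correlations with C1qb, C1qc and Lyz2, which carry the same label of macrophage marker, thus did not pass here.

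The 8 genes whose pattern was most like that of Cd68 were Nes, Pdlim3, Shisa4, Ddost, Macf1, Mustn1, Ankrd13a and Xirp2. They were picked after their values were seen and have no p, since they are the highest of 12056. The 3 described are known from muscle fibres and were not chosen by r. The others had r of 0.94 (Shisa4), 0.93 (Ddost), 0.93 (Macf1), 0.91 (Mustn1) and 0.90 (Ankrd13a). Over 15 arrays, r with Cd68 was 0.94 for Nes (nestin, an intermediate filament of immature and regenerating fibres), 0.94 for Pdlim3 (a Z-disc protein) and 0.90 for Xirp2 (a protein of fibre junctions and damage sites). Nes read 8.53 on knockout control replicate 1, and 7.59 and 7.48 on wildtype CR replicates 1 and 2, the same 3 arrays on which Cd68 was highest. Without knockout control replicate 1 and wildtype CR replicate 1, r with Nes was 0.75 and with Pdlim3 0.74. Within groups the 2 values were 0.93 and 0.94. Of the genes on either side of Cd68 in the gene order, Eif4a1 had r = 0.73 with it and Mpdu1 r = 0.04. A part of Eif4a1 in the Cd68 reading was not tested.

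**Figure D5:**
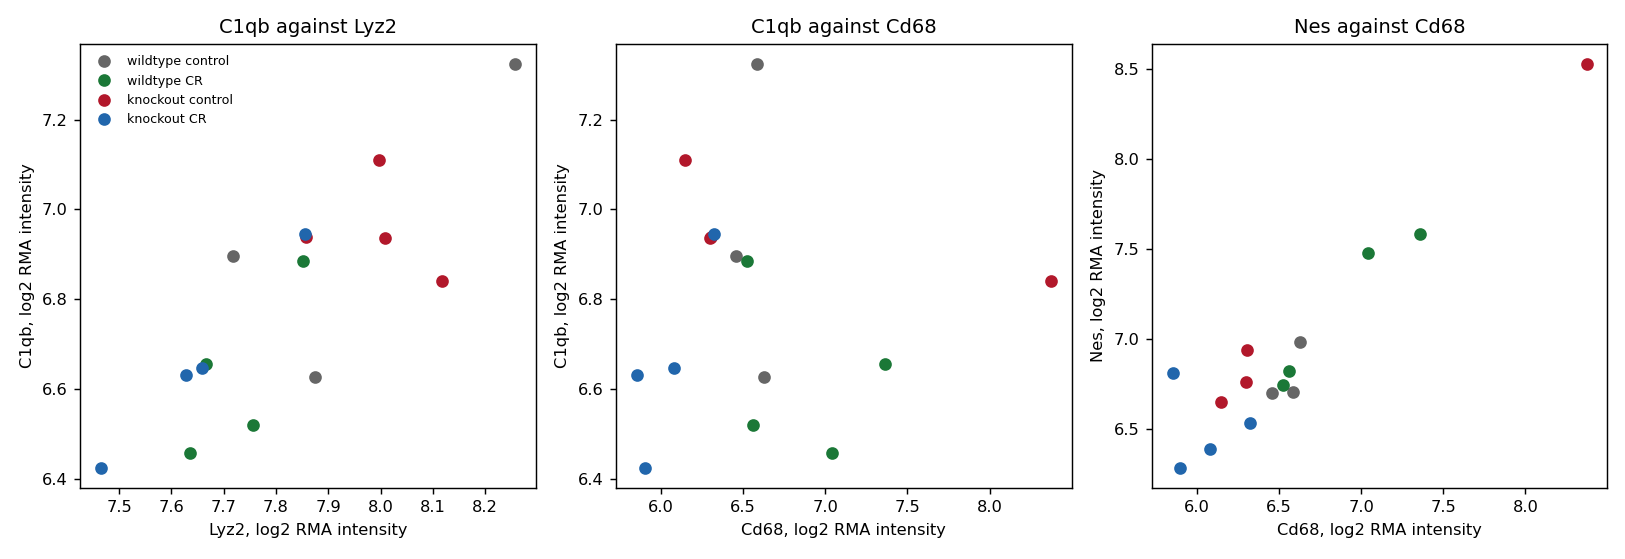
Log2 RMA intensity of C1qb against Lyz2, C1qb against Cd68 and Nes against Cd68, with 1 point per array coloured by group. C1qb follows Lyz2 (r = 0.83) and not Cd68 (r = -0.0035), while Nes follows Cd68 (r = 0.94) with 1 knockout control array far to the right.

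The 5 genes most like the mean of the 10 members were Gclm, Wsb2, Laptm5, Cybb and Cmtm7, with r of 0.84, 0.81, 0.79, 0.79 and 0.77 over 15 arrays. Without wildtype control replicate 1 and knockout control replicate 1 the values were 0.76, 0.56, 0.77, 0.54 and 0.77. Laptm5 encodes a lysosomal protein of blood cells and Cybb the catalytic chain of the phagocyte NADPH oxidase. Gclm encodes the modifier subunit of the enzyme that begins glutathione synthesis, and it fell under CR averaged over genotypes, with a log2 change of -0.34 (SE 0.07, adjusted p = 0.0478). That call was lost in 15 of 15 fits that left out 1 array, with the sign kept. C1qb was closest to Laptm5 (r = 0.87) and to the myeloid signalling adaptor Tyrobp (r = 0.84). Mrc1 was closest to C1qb and then to genes that include the liver genes Cps1 (r = 0.76), Apob (0.75) and Hpx (0.75), and its own highest array, wildtype CR replicate 4, was also the highest for the hepatocyte list. The part of liver RNA in the Mrc1 level was not tested.

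Among further genes of the macrophage pathway, no macrophage list had a gene that passed the test for CR averaged over genotypes. Of 30 receptors and signalling genes, 17 passed the filter, 0 were called and 4 were lower at an unadjusted p under 0.05, beside 6.40% of all genes, with a median log2 change of -0.13 beside 0.03. The smallest p was that of Fcer1g, the shared gamma chain of Fc receptors, whose means were 6.46 ± 0.26 (SD, n = 3) and 6.15 ± 0.14 (SD, n = 4) in the wildtype on control diet and CR, and 6.44 ± 0.11 (SD, n = 4) and 6.18 ± 0.20 (SD, n = 4) in the knockout. Its averaged log2 change was -0.29 (SE 0.09, adjusted p = 0.108). Tyrobp was at -0.22 (adjusted p = 0.19) and the dead-cell receptor Axl at -0.20 (adjusted p = 0.177), neither past the threshold.

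Growth factors and chemokines gave 0 calls among 8 of 12 genes past the filter. Of these, 4 were lower and 0 higher at an unadjusted p under 0.05 in limma, beside 6.40% of all genes that were lower. Their median log2 change was -0.21 beside 0.03 over all genes. Csf1, the ligand of Csf1r, was at -0.20 (SE 0.07, adjusted p = 0.149) and the monocyte chemokine Ccl2 at -0.52 (SE 0.20, adjusted p = 0.176). Transcription factors of the lineage were mixed, with 0 calls among 8 tested of 9 matched and a median of 0.14. At an unadjusted p under 0.05 in limma, 4 of them were higher and 2 lower. Spi1 was at -0.18 (adjusted p = 0.105) and Runx1 at -0.47 (adjusted p = 0.118), whereas Irf8 was at 0.24 (adjusted p = 0.162) and Maf at 0.22 (adjusted p = 0.189). The partners of C1q in the complement cascade gave 0 calls among 8 tested of 11 matched, with a median of -0.07, and the genes of haemoglobin uptake and iron handling 0 among 7, with a median of 0.03.

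Other leukocyte lists were measured beside these. Of the pan-leukocyte genes, 8 of 16 passed the filter and 1 was called, beside 1.07% of all genes. This was Cd44, a hyaluronan receptor also made by many other cells, which fell by 0.43 on the log2 scale (SE 0.09, adjusted p = 0.0484). Its means were 6.04 ± 0.16 (SD, n = 3) and 5.55 ± 0.26 (SD, n = 4) in the wildtype on control diet and CR, and 5.79 ± 0.17 (SD, n = 4) and 5.43 ± 0.16 (SD, n = 4) in the knockout. When 1 array at a time was left out, Cd44 passed in 1 of 15 fits. Dendritic cell and MHC class II genes gave 0 calls among 5 of 11 past the filter, with H2-Ab1, an antigen presentation gene, at -0.76 (SE 0.19, adjusted p = 0.0725). Lymphocyte and neutrophil markers were mostly dim: 2 of 7 matched T cell genes, 1 of 5 B cell genes, 1 of 6 NK cell genes and 1 of 10 neutrophil genes passed the filter, and 0 of them were called. Of 6 mast cell genes 3 passed the filter and 0 were called.

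Markers of tissue other than leukocytes also differed with diet. Sparc, a matrix protein of fibroblasts, fell by 0.31 on the log2 scale (adjusted p = 0.0461). It was the 1 call among 9 fibroblast and matrix genes, whose median was -0.36, beside 1.07% of all genes called. Of those 9, 7 were lower at an unadjusted p under 0.05 in limma, beside 6.40% of all genes. Sparc passed in 2 of 15 fits with 1 array left out. Of 10 fast muscle fibre genes, 4 were called and rose (Mylpf, Actn3, Tnni2 and Pvalb), beside the same 1.07% of all genes. Mylpf was at 0.38 (SE 0.06, adjusted p = 0.0127). Mylpf passed in 15 of 15 fits with 1 array left out, Actn3 in 3, Tnni2 in 2 and Pvalb in 0. The part of these shifts in the members' levels was not tested.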

How the data were processed

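Biotin-labelled RNA from 15 gastrocnemius muscles was measured on Affymetrix arrays, per the labels. The deposited values are log2 intensities made by the authors with RMA, per the submitters' processing notes. No batch was tested, since neither the RMA version nor a day of hybridisation or scanning appears in the labels. The table held 35556 probe sets with array medians from 5.40 to 5.48 and was not normalized further. Of these, 21789 had 1 gene symbol in the platform annotation, 1621 had several and were left out (3 of them name Itgam beside another gene), and 12146 are unnamed here. Each of 19938 genes was represented by its probe set with the highest mean. Genes whose mean fell short of 5.32, which is percentile 40 over the 23410 annotated probe sets, were removed, which left 12056.

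The model was fitted to the 15 arrays together, as 4 group means and 6 contrasts (limma 3.58.1, R 4.3.3), with p-values adjusted by Benjamini-Hochberg within each contrast. The number of arrays limits the precision. SEs are moderated. Pairs of members were tested by permutation in Python 3.11.15. The scripts were tested on simulated data.

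The members, gene lists and tests were chosen with earlier results of these data known. Named genes are the members, from each of 22 other lists the genes that passed or else up to 4 with the smallest p for CR averaged over genotypes (the lists' text gives fewer), and the 5 genes most like the members' mean; genes like single members and the motif were picked after values were seen. Alternatives were the filter, the probe set rule, normalization, the prior, the arrays fitted, array weights, a replicate block and leaving out arrays. The labels do not say that replicate numbers pair mice. Of 21 same-numbered pairs, 7 had deviations correlated over 0.1, which cannot decide it.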

Additional observations from a re-analysis of the deposited data

Results flagged for a closer look

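Cd68 on knockout control replicate 1, at 8.37 on the log2 scale, stood apart from the other 3 arrays of its group, at 6.15 to 6.30: the gap to its nearest neighbour made up 0.93 of the group's range, above Dixon's critical value for a group of 4. Among the 30 member and group combinations examined this was the 1 that stood apart, where chance alone gives about 1.5, or 1 in 20. These were the groups of 4 arrays. The wildtype control group, with 3 arrays, was too small for the critical values used and was not examined for any member. Knockout control replicate 1 also held male germ cell transcripts (list mean 3.14) and the highest Nes reading, 8.53. Their part in the Cd68 value was not tested.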

How the results depend on the processing

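The count of members that passed was 0 in each of the 6 comparisons under every alternative run, except 1 (Lyz2, CR averaged over genotypes, -0.32) with array weights. Another alternative left out 4 arrays with transcripts of another tissue (wildtype control replicates 2 and 3, knockout control replicate 1, wildtype CR replicate 4). It kept knockout control replicate 2 and wildtype control replicate 1, with hepatocyte list means of 1.29 and 1.08. Wildtype control replicate 1 was then the only wildtype control, assumed to vary like the other groups. The members' median log2 change was then -0.408 for CR in wildtype, 0.27 for the interaction and -0.30 for knockout against wildtype on the control diet. Leaving out wildtype and knockout control replicate 1, the 2 arrays with the highest member mean, was added after seeing the data. As it picks control arrays by the outcome itself, it is bound to shrink the diet difference: the medians were -0.056 for CR averaged and -0.18 for the interaction. Leaving out 1 array at a time, the interaction median ran from -0.162 to 0.016 and that for CR averaged from -0.29 to -0.11 (without knockout control replicate 1).

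Changes of C1qa, Mrc1 and Cd68 turned sign under some alternatives. C1qa for CR in knockout was -0.0045 with arrays centred on their medians and -0.00153 without wildtype control replicate 3 and knockout control replicate 1 (which hold germ cell transcripts), without those 4 or without those 2, and ran from -0.0031 to 0.076 leaving out 1 array. C1qa without the 4 arrays was -0.016 for CR in wildtype and -0.0085 averaged. Mrc1 for CR in wildtype was 0.00078 with array weights, 0.024 without the germ cell pair and 0.034 without the 2 highest, and ran from -0.16 to 0.045. Cd68 for CR averaged, -0.21 with all arrays, was 0.027 without the germ cell pair, 0.095 without the 4 and 0.059 without the 2 highest, and ran from -0.32 to 0.052. Cd68 for knockout against wildtype on the control diet, 0.22 with all arrays, was -0.12 with array weights, -0.36 without the germ cell pair, -0.34 without the 4 and -0.29 without the 2 highest, and ran from -0.31 to 0.44. Apart from array weights, each Cd68 reversal came from a fit without knockout control replicate 1. The cause of the others was not tested.

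With the replicate number as a block, the median log2 change was -0.16 for CR averaged, the smallest adjusted p there was 0.0947 and the count of members passed stayed at 0. The block ended the calls of Actn3, Tnni2, Pvalb, Cd44 and Sparc (adjusted p from 0.0898 to 0.106) and kept those of Mylpf and Gclm (0.0235 and 0.0175). Same-numbered pairs had correlations from -0.64 to 0.50. These cannot decide whether the numbers pair mice, because the deviations also carry what sets single arrays apart, such as transcripts of other tissues.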
